A study of Mus musculus with 6 samples.

Results

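The genes described here are 50 named genes of the cell division cycle, of 40824 genes in the table of read counts. They were taken by name and fall into 7 genes of the step from G1 into S phase, 23 genes of DNA replication, and 20 genes of G2 and mitosis. The data are single-nucleus RNA sequencing (Smart-seq3xpress, a plate method that gives reads along the transcript) of nuclei labelled as hepatocytes, from livers of female wild-type C57BL/6J mice. The mice were sampled on day 0 of gestation (G0), at mid-gestation (labelled G14.5) and on postpartum day 7 while lactating (P7L). Each stage has 1 library labelled as perfusion and 1 labelled as liver tissue, which makes 6 libraries and 1567 nuclei. No group carries a transgene or a drug treatment in the labels. The labels do not name the animals behind a library, so every p-value measures only the spread between these libraries, which may be technical. Their protocol describes collagenase digestion, Percoll enrichment and hand picking of single hepatocytes, and does not set the tissue libraries apart.

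A cell enters S phase when cyclin D and cyclin E kinases release E2F transcription factors from the retinoblastoma proteins. E2F1 switches on the genes of the replication machinery, and E2F7 and E2F8 switch the same genes off again. Later, the B-MYB and FOXM1 factors switch on the genes of G2 and mitosis through a promoter element called CHR. Hepatocytes can copy their DNA and then skip mitosis or cytokinesis, which leaves cells with a larger nucleus or with an additional one. The mouse liver grows in pregnancy, so these genes were read by role: G1/S control, replication, mitosis and, within mitosis, cytokinesis.

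Promoters are shown for 5 genes that carry the stage differences below, as examples of the E2F and CHR letters that are counted after them. Each line gives the bases before the RefSeq start site on mouse build GRCm38.p6, read 5′ to 3′ on the gene's own strand. Capitals mark the E2F letters TTTCCCGC, TTTGGCGC, TTTCGCGC or TTTGCCGC and the CHR letters TTTGAA or TTCGAA, on either strand. Dtl lies at chr1:191575545-191575744 (minus strand), Mcm6 at chr1:128359706-128359905 (minus), Mki67 at chr7:135716380-135716579 (minus), Top2a at chr11:99024190-99024389 (minus) and E2f8 at chr7:48881597-48881796 (minus).
Dtl: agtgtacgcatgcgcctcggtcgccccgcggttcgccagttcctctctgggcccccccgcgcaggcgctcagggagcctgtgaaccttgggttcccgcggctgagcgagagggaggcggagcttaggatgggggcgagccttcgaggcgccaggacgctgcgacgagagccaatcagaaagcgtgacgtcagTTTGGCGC
Mcm6: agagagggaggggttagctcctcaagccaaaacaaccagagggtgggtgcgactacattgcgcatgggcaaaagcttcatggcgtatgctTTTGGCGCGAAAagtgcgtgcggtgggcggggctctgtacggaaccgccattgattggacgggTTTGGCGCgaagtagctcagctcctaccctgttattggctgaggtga
Mki67: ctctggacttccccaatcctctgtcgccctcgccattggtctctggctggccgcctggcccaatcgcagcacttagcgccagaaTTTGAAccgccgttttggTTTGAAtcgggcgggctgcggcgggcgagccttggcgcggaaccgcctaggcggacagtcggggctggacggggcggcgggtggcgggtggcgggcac
Top2a: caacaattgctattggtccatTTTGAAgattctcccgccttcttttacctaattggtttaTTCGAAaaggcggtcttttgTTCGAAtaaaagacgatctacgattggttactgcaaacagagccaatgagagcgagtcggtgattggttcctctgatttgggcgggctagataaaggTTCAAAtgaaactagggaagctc
E2f8: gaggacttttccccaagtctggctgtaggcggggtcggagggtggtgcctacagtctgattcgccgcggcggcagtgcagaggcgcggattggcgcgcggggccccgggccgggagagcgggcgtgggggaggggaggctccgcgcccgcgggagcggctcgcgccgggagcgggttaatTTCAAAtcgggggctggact
Dtl, which recruits a ubiquitin ligase to PCNA in S phase, and Mcm6, a subunit of the replicative helicase, held E2F letters and no CHR letters in these stretches. The first marked run of Mcm6 holds 2 overlapping E2F matches. Mki67, the proliferation antigen Ki-67 that coats mitotic chromosomes, and Top2a, the topoisomerase that untangles sister chromatids, held CHR letters and no E2F letters. E2f8 held 1 CHR match. The other replication genes called at G14.5 against G0 differ from Dtl and Mcm6. Mcm2, Cdc45 and Fen1 held CHR letters and no E2F letters in the longer windows that follow, for Fen1 in the first of 2 listed promoters.

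Over windows from 250 bases before to 50 after the start, RefSeq held a promoter for 5 of the 7 G1/S genes, 20 of the 23 replication genes and 17 of the 20 mitosis genes. Only the first listed promoter of each gene was searched, also for the shares over all promoters. Fen1, Mcm7, Ect2, Prc1 and Cdkn1a had 2 listed. E2F letters stood in 9 of the 20 replication promoters (45.0%), namely those of Mcm3, Mcm5, Mcm6, Mcm7, Dtl, Brca2, Cdt1, Cdc6 and Pola1. They stood in 1 of the 17 mitosis promoters (Cdk1) and in 2.32% of all 27025 promoters of that length. CHR letters stood in 14 of the 17 mitosis promoters (82.4%), all but those of Cenpe, Ccnb1 and Birc5. They stood in 4 of the 20 replication promoters (Mcm2, Mcm7, Cdc45 and Fen1) and in 19.4% of all promoters. The CCAAT letters stood in 88.2% of the mitosis promoters, 65.0% of the replication promoters and 37.9% of all promoters. These matches describe letters and were not tested as binding sites.

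The libraries held 226030591 to 379767336 reads in genes, with median reads per nucleus between 731494.5 and 1191576. These are reads and not molecules, so intervals over nuclei cover counting error only. The 10 hepatocyte markers, among them Alb and Apob, took 1.59% to 1.84% of the reads of each library and had a read in every nucleus. Markers of other liver cells were low: the 8 endothelial markers summed to 14.51 to 37.2 CPM and the 8 Kupffer and macrophage markers to 7.43 to 21.7 CPM. The stellate markers summed to 9.08 to 24.6 CPM and the cholangiocyte markers to 121 to 184 CPM. Lymphocyte, neutrophil and erythroid markers summed to at most 14.8 CPM, and none of these lists exceeded 1% of the reads in any nucleus. At 250000 reads per nucleus, the median number of genes with a read was 5386 and 5650 in the G0 perfusion and liver tissue libraries, 6037 and 6001.5 in the G14.5 ones and 6753 and 6701 in the P7L ones. The share of nuclei with a read therefore moves with stage for many genes. In library sums, fewer nuclei expressing a gene and less RNA per nucleus cannot be told apart.

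Of the 50 genes, 47 had reads and 44 passed the filter on low counts, 7 for G1/S, 19 for replication and 18 for mitosis. Mcm3, Aurkb and Foxm1 had reads in too few nuclei to be tested. Cdt1, which loads the helicase, Gins2, a helicase subunit, and Tk1, thymidine kinase, had 0 reads in every nucleus. In GENCODE M21 each of the 3 lies within a longer gene model, Gm20388 for Cdt1 and Gins2 and Gm20708 for Tk1, and the part of that overlap was not tested. Levels below are CPM of library sums (a gene's reads over all reads of the library, rescaled), with edgeR's TMM factors. Between genes, per length and on the authors' scaled values averaged over nuclei, Gins1, a helicase subunit, came first in both G0 libraries (5.40 in perfusion and 3.40 in liver tissue), in the G14.5 liver tissue library (4.57) and in the P7L liver tissue library (4.66). Pola1, the catalytic subunit of DNA polymerase alpha, came first in the G14.5 (3.05) and P7L (3.84) perfusion libraries and second in the other libraries. Cdc45 ranked 10 and 6 in the G0 perfusion and liver tissue libraries, 2 and 4 in the G14.5 ones and 4 in both P7L ones.

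At mid-gestation (G14.5 against G0), 5 replication genes (Mcm2, Dtl, Mcm6, Fen1 and Cdc45) and 6 mitosis genes (Mki67, Top2a, Bub1, Cenpe, Prc1 and Ect2) were higher. Of the 44 tested genes, these 11 rose and 0 fell by edgeR's quasi-likelihood test (adjusted p under 0.05). The test had preparation as a term and Benjamini-Hochberg adjustment over all 15015 tested genes. A gene low at G0 can pass the filter through the later stages alone. Such a gene could then hardly be called lower than at G0, here or at P7L. Mcm2, Fen1 and Bub1 stood near the floor at G0. The calls of Fen1, Bub1, Cenpe and Prc1 were lost with filterByExpr alone or no filter. Those of Cenpe and Prc1 were also lost with no preparation term and after thinning of the nuclei. They held in 8 and 7 of the 16 alternative settings. Over all tested genes 11.9% were called, 6.93% higher and 5.01% lower (1040 and 753 genes, or 891 and 1101 with library size alone as the scaling, which shifts the median of all genes to -0.13). The calls were 5 of 19 replication genes, 6 of 18 mitosis genes and 0 of 7 G1/S genes. Summed over all replication genes the libraries overlapped, with 198 and 256 CPM in the G14.5 perfusion and liver tissue libraries, against 206 and 189 CPM in the G0 ones. The mitosis genes summed to 68.6 and 142 CPM at G14.5, against 16.6 and 30.3 CPM at G0. The median log2 difference was 1.11 for the replication genes, 2.36 for the mitosis genes and 0.74 for the G1/S genes, against -0.01 for all tested genes.

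**Figure D1:**
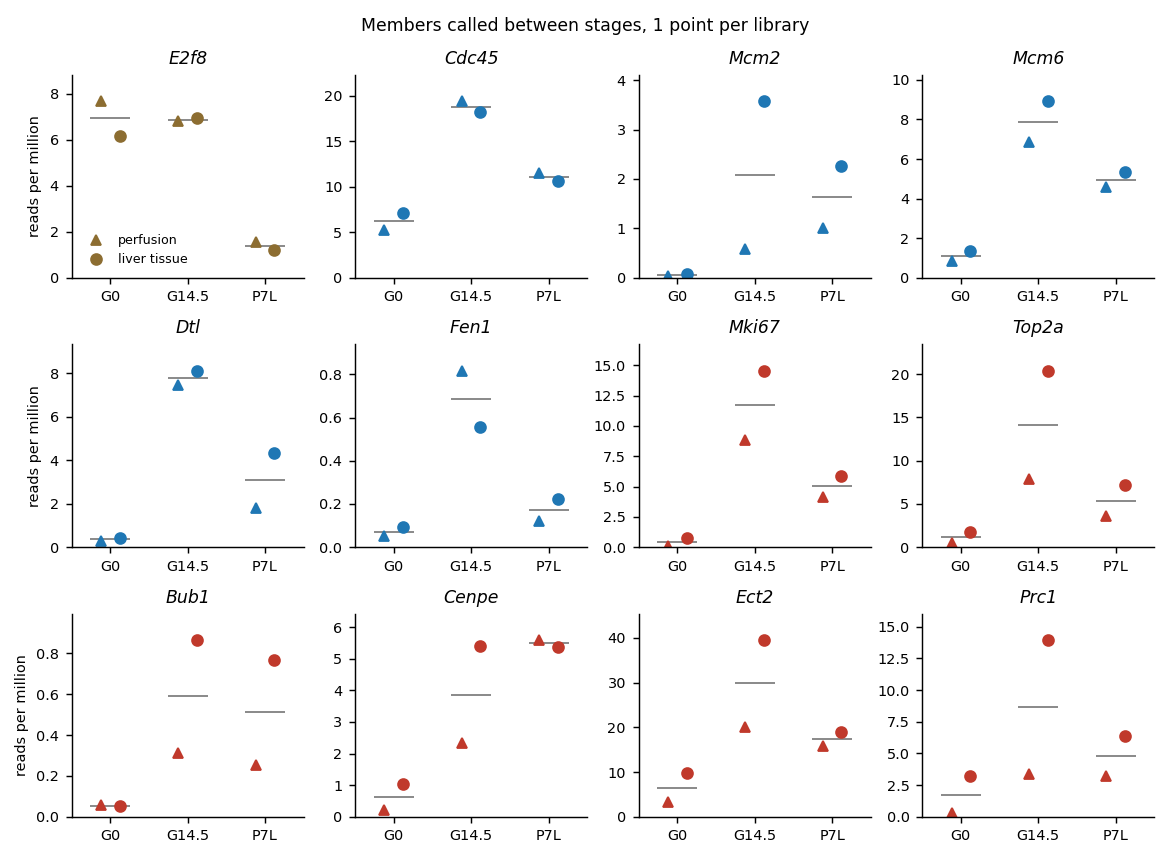
CPM (TMM-scaled, axis labelled as reads) of the 12 genes called in at least 1 stage comparison, 1 point per library; triangles are perfusion, circles liver tissue, and the line is the mean of the 2 libraries of a stage. Both G14.5 libraries lie above both G0 libraries for every gene shown but E2f8, which stands apart at P7L with 1.56 and 1.19 CPM.

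Among the replication genes, Dtl stood at 7.43 and 8.11 CPM in the G14.5 perfusion and liver tissue libraries, against 0.294 and 0.441 CPM in the G0 ones. The groups lie far apart and the preparations close together, for a log2 difference of 4.45 ± 0.58 (SE, edgeR adjusted p = 0.00469). Mcm6 stood at 6.84 CPM (perfusion) and 8.93 CPM (liver tissue) at G14.5, against 0.855 and 1.34 CPM at G0, a log2 difference of 2.86 ± 0.46 (edgeR adjusted p = 0.0103). Mcm2, another subunit of the helicase, stood at 0.585 and 3.58 CPM at G14.5, against 0.0398 and 0.0750 CPM at G0. Its log2 difference was 4.80 ± 0.81 (edgeR adjusted p = 0.0126), and 1 nucleus gave 70.4% of its reads in the G14.5 liver tissue library.

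Cdc45, which joins the helicase to make it active at origins, had 19.4 and 18.2 CPM in the G14.5 perfusion and liver tissue libraries, against 5.27 and 7.11 CPM in the G0 ones. The log2 difference was 1.61 ± 0.33 (edgeR adjusted p = 0.0225). It was broad: 77.7% and 75.4% of the G14.5 nuclei had a Cdc45 read at equal depth, against 47.5% and 41.4% of the G0 nuclei. Cdc45 shares 5.96% of its exon bases with Ufd1 on the other strand, and whether the counting used strand is not given in the sources used here. Fen1, the nuclease that trims Okazaki fragments, had 0.817 and 0.554 CPM at G14.5, against 0.0517 and 0.0926 CPM at G0 (log2 difference 3.32 ± 0.67, edgeR adjusted p = 0.0227). Its exons share 78.8% of their bases with the antisense gene Gm10143, which had 0.217 and 0.147 CPM at G14.5 and 0 reads at G0, so reads of the pair cannot be told apart.

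The other replication genes did not pass the test. Mcm4 had 1.59 CPM in the G14.5 perfusion library and 11.8 CPM in the liver tissue one, against 1.32 and 0.843 CPM at G0, so its height rests on 1 library. Mcm5 had 1.18 and 0.968 CPM, against 0.203 and 0.243 CPM (log2 difference 2.32 ± 0.76, edgeR adjusted p = 0.0900). Pcna, the sliding clamp, had 8.62 and 11.4 CPM, against 0.930 and 5.10 CPM. Chek1, the checkpoint kinase that holds replication forks, had 5.95 and 6.51 CPM, against 2.56 and 2.14 CPM (log2 difference 1.41 ± 0.45, edgeR adjusted p = 0.0862). These 4 genes had positive differences whose adjusted p stayed above the threshold.

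A further set of replication genes was read at every stage, with differences between G14.5 and G0 that were small beside their errors or negative. Pola1 had 56.9 and 69.3 CPM at G14.5, against 69.8 and 42.1 CPM at G0, and Mcm10 had 19.0 and 24.4 CPM, against 21.0 and 27.4 CPM. Mcm7 had 10.3 and 10.4 CPM, against 13.2 and 8.13 CPM. Tyms and Rrm2, enzymes that supply nucleotides, had log2 differences of 0.48 ± 0.45 and 0.23 ± 0.49, and that of Rrm1 was -0.93 ± 0.36 (edgeR adjusted p = 0.136). Gins1, Brca1 and Cdc6 had differences of -0.48 ± 0.47, 0.67 ± 0.59 and 1.11 ± 1.17, each within 2 SE of 0. Brca2, which works in the repair of broken DNA, had 12.1 and 27.5 CPM at G14.5, against 41.3 and 40.5 CPM at G0 (log2 difference -1.13 ± 0.33, edgeR adjusted p = 0.0688). Of the 19 tested replication genes, 14 had a positive difference, under TMM as under library size alone.

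The mitosis genes lay to 1 side: all 18 tested had a positive difference at G14.5 against G0 (17 with library size alone as the scaling, Birc5 being at 0.00 under TMM), and 6 passed the test. Mki67 had 8.88 and 14.6 CPM in the G14.5 perfusion and liver tissue libraries, against 0.111 and 0.781 CPM in the G0 ones (log2 difference 5.07 ± 0.72, edgeR adjusted p = 0.00690). Top2a had 7.90 and 20.4 CPM, against 0.493 and 1.81 CPM (log2 difference 3.72 ± 0.44, edgeR adjusted p = 0.00348). Within each stage the liver tissue library was the higher for both. Ect2, the exchange factor that turns on RhoA for the contractile ring, had 20.2 and 39.5 CPM at G14.5, against 3.34 and 9.68 CPM at G0 (log2 difference 2.28 ± 0.37, edgeR adjusted p = 0.0111).

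Bub1, a spindle checkpoint kinase, had 0.313 and 0.865 CPM at G14.5, against 0.0557 and 0.0529 CPM at G0 (log2 difference 3.19 ± 0.71, edgeR adjusted p = 0.0302). Cenpe, a kinesin of the kinetochore, had 2.32 and 5.40 CPM, against 0.211 and 1.05 CPM (log2 difference 2.79 ± 0.69, edgeR adjusted p = 0.0442). Prc1, which bundles the microtubules of the central spindle, had 3.37 and 13.9 CPM, against 0.294 and 3.18 CPM (log2 difference 2.67 ± 0.65, edgeR adjusted p = 0.0417). For Prc1 the G14.5 perfusion library (3.37) is close to the G0 liver tissue library (3.18). Prc1 shares 11.1% of its exon bases with Rccd1 on the other strand.

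Cyclin and kinase genes of mitosis were low and uneven. Ccnb1, cyclin B1, had 3.25 and 4.37 CPM at G14.5, against 0 reads and 0.688 CPM at G0, and 1 nucleus held 95.5% of the reads in that G0 liver tissue library. Cdk1, its kinase, had 1.16 and 4.06 CPM, against 0.0557 and 0.966 CPM (log2 difference 2.83 ± 0.97, edgeR adjusted p = 0.104). Kif11, the motor that separates spindle poles, had 3.94 and 10.6 CPM, against 0.533 and 3.41 CPM (log2 difference 2.14 ± 0.59, edgeR adjusted p = 0.0581). The smallest differences were those of Birc5, or survivin (0.00 ± 0.43), Aurka (0.98 ± 0.80) and Kif23 (1.08 ± 0.65), and the remaining mitosis genes lay between 1.12 for Plk1 and 2.47 for Bub1b.

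In the 7 G1/S genes, none passed the test at G14.5 against G0. Ccne1, cyclin E1, had 1.80 and 3.69 CPM, against 0 reads and 0.251 CPM, and 1 nucleus held 82.7% of the reads in the G14.5 liver tissue library. E2f1 had 4.91 and 2.96 CPM, against 1.09 and 1.68 CPM (log2 difference 1.503 ± 0.54, edgeR adjusted p = 0.117). E2f8 had 6.79 and 6.95 CPM, against 7.68 and 6.17 CPM, a difference of 0.00 ± 0.41. Ccnd1, cyclin D1, had 2.94 and 1.06 CPM, against 3.69 and 4.84 CPM (-1.20 ± 0.57), and E2f7 had 0.814 and 0.251 CPM, against 0.676 and 1.51 CPM. Cdkn1a, the inhibitor p21, had 5.56 and 16.1 CPM, against 7.64 and 3.72 CPM, so its groups overlap. Ccne2 had 3.30 and 3.61 CPM, against 0.978 and 3.97 CPM, and overlaps as well.

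The calls of Dtl, Mki67 and Top2a held in all 16 alternative settings, with adjusted p up to 0.0413. Without the G14.5 liver tissue library 6 genes were called, and those of Mcm6, Ect2, Cdc45, Bub1, Cenpe and Prc1 were among the calls lost; without the G14.5 perfusion library or the G0 perfusion library 7 were called.

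**Figure D2:**
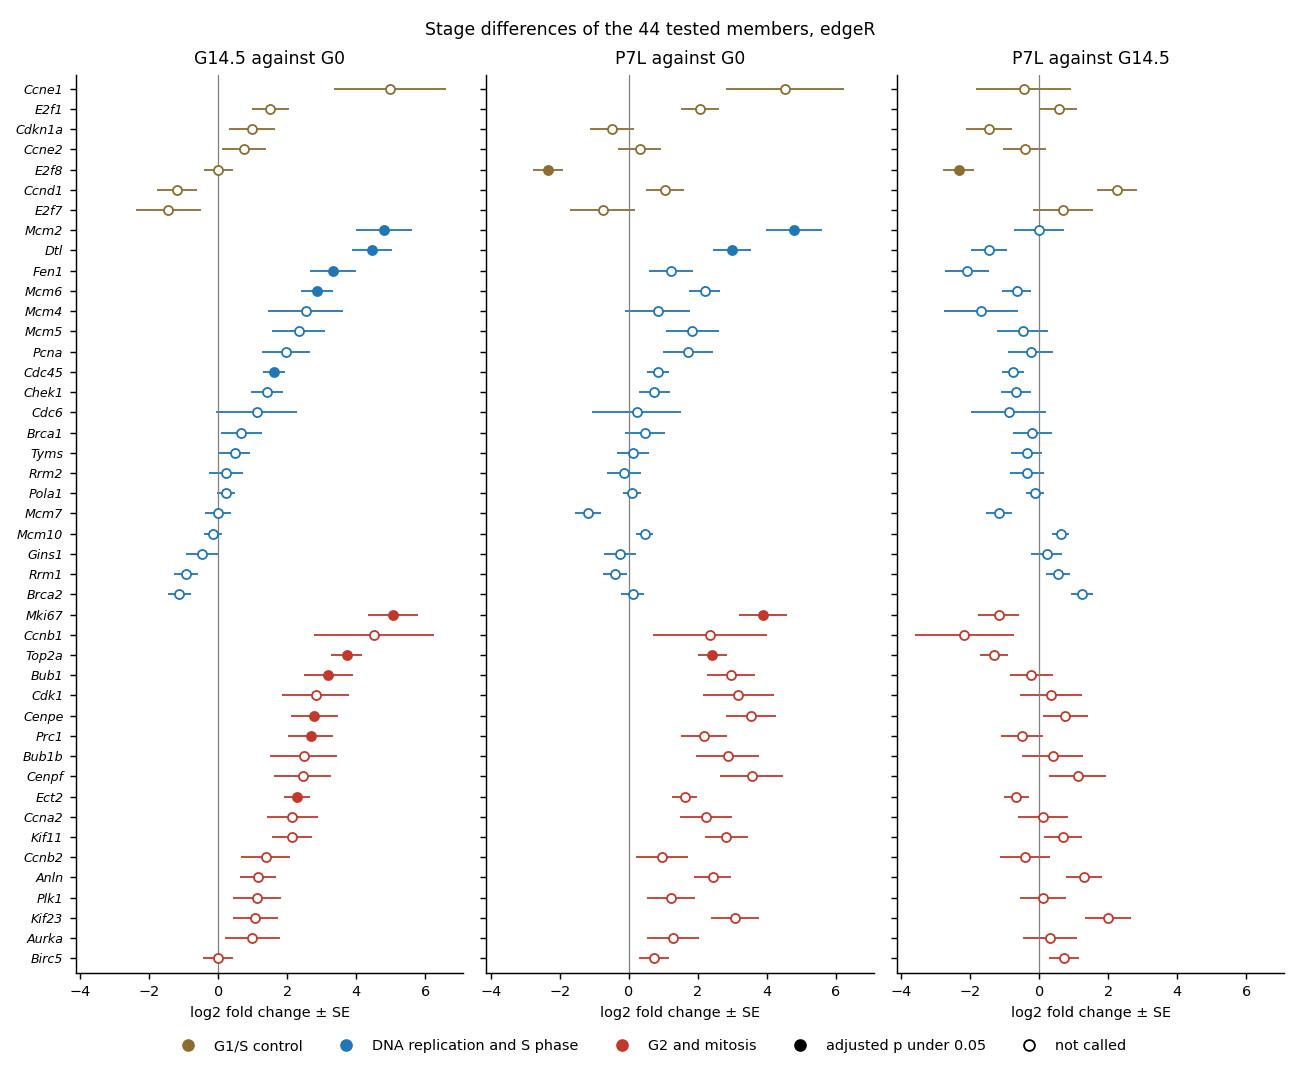
Log2 fold change (edgeR) of the 44 tested genes in 3 stage comparisons, with a standard error computed from the F statistic of the test. Brown is G1/S control, blue replication, red mitosis, and filled points have an adjusted p under 0.05. At G14.5 against G0 all 18 mitosis genes lie at or right of 0 and the replication genes run from -1.13 (Brca2) to 4.80 (Mcm2); P7L against G14.5 shows 1 filled point, E2f8 at -2.34.

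At postpartum day 7 (P7L against G0), 4 of the 44 genes rose, Mcm2, Dtl, Top2a and Mki67, and E2f8 fell. Over all tested genes 2.92% were called, 1.56% higher and 1.36% lower (234 and 204 genes, or 309 and 172 with library size alone). This comparison shares its G0 libraries with the one above. The median log2 difference was 0.47 for the replication genes, 2.43 for the mitosis genes and 0.31 for the G1/S genes, against 0.01 for all tested genes, and all 18 tested mitosis genes had a positive difference under each of the 3 scalings.

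Mcm2 had 1.01 and 2.26 CPM in the P7L perfusion and liver tissue libraries, against 0.0398 and 0.0750 CPM in the G0 ones (log2 difference 4.79 ± 0.81, edgeR adjusted p = 0.0317). Dtl had 1.82 and 4.33 CPM, against 0.294 and 0.441 CPM (2.99 ± 0.54, edgeR adjusted p = 0.0386). Both P7L libraries stand above both G0 libraries for these replication genes. Mki67 had 4.16 and 5.86 CPM, against 0.111 and 0.781 CPM (3.89 ± 0.69, edgeR adjusted p = 0.0366). Top2a had 3.60 and 7.15 CPM, against 0.493 and 1.81 CPM (2.42 ± 0.42, edgeR adjusted p = 0.0347), and 1 nucleus held 73.4% of its reads in the P7L perfusion library.

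Several genes lay just above the threshold at P7L against G0 and are named here for that. Of the 6 tested cytokinesis genes, 2 were called at G14.5 against G0 (Ect2 and Prc1), where 6.93% of all tested genes were called higher. At P7L against G0 none of the 6 was called, where 1.56% of all tested genes were called higher. All 6 had a positive difference there, with a median of 1.90. An unadjusted p under 0.05 by edgeR was reached by 4 of them at P7L against G0, and by 21.2% of all tested genes. Cenpe had 5.59 and 5.38 CPM, against 0.211 and 1.05 CPM (3.54 ± 0.73, edgeR adjusted p = 0.0549), with 90.1% of the P7L perfusion reads in 1 nucleus. Kif23, a motor of the central spindle, had 1.33 and 2.39 CPM, against 0.0954 and 0.437 CPM (3.07 ± 0.69, edgeR adjusted p = 0.0658). Anln, the anillin scaffold of the contractile ring, had 3.73 and 6.78 CPM, against 0.664 and 1.30 CPM (2.44 ± 0.54, edgeR adjusted p = 0.0618). Kif11 and Ect2 differed by 2.83 ± 0.61 (edgeR adjusted p = 0.0613) and 1.62 ± 0.37 (edgeR adjusted p = 0.0676), and Mcm6 by 2.21 ± 0.45 (edgeR adjusted p = 0.0514). Of the untested genes, Foxm1 had 5.97 CPM in the P7L perfusion library, with 98.7% of its reads in 1 nucleus, and 0.454 CPM in the P7L liver tissue library, against 0.0199 and 0.0397 CPM at G0.

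E2f8 was the G1/S gene that fell. It had 1.56 and 1.19 CPM in the P7L perfusion and liver tissue libraries, against 7.68 and 6.17 CPM in the G0 ones (log2 difference -2.33 ± 0.44, edgeR adjusted p = 0.0421). The share of nuclei with an E2f8 read at equal depth was 7.77% and 8.50% at P7L, against 15.5% and 16.0% at G0. All of these shares lie below the median share of the endothelial markers given further on, so nothing is read from them. The antisense gene Gm2788, which shares 11.2% of the exon bases of E2f8, fell too, with 37.8 and 51.9 CPM at P7L against 98.9 and 89.5 CPM at G0 (-1.09 ± 0.20, edgeR adjusted p = 0.0423), and its part in the E2f8 reads was not tested. E2f1, the activator, had 5.67 and 5.91 CPM at P7L, against 1.09 and 1.68 CPM at G0, and did not pass the test (2.06 ± 0.54, edgeR adjusted p = 0.0892). All 5 calls at P7L against G0 were lost on the authors' scaled values (at both pseudocounts), without a filter, or when filterByExpr was the only one, and those of Mcm2, Mki67 and Top2a also with no preparation term and those of Dtl, Mki67 and Top2a after thinning. They also rest on single libraries: none of the 44 genes was called without either P7L library, 2 were without the G0 perfusion library or the G14.5 liver tissue library, and 10 were without the G0 liver tissue library.

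Between P7L and G14.5, 1 of the 44 genes was called, E2f8, which was lower at P7L by the same test. Over all tested genes 9.26% were called, 4.20% higher and 5.06% lower (630 and 760 genes, or 1048 and 551 with library size alone, which shifts the median of all genes to 0.20). E2f8 had 1.56 and 1.19 CPM in the P7L perfusion and liver tissue libraries, against 6.79 and 6.95 CPM in the G14.5 ones (-2.34 ± 0.44, edgeR adjusted p = 0.0187), and lost the call without either P7L library or either G14.5 library. Gm2788 differed by -0.68 ± 0.20 (edgeR adjusted p = 0.0901). The median log2 difference was -0.37 for the replication genes, 0.21 for the mitosis genes and -0.42 for the G1/S genes.

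Fen1 was lower at P7L than at G14.5 by value, with 0.119 and 0.222 CPM against 0.817 and 0.554 CPM (-2.09 ± 0.64, edgeR adjusted p = 0.0938). Ccnd1 was higher by value, with 8.92 and 9.04 CPM against 2.94 and 1.06 CPM (2.25 ± 0.58, edgeR adjusted p = 0.0578). Brca2 was too, with 42.7 and 46.2 CPM against 12.1 and 27.5 CPM (1.24 ± 0.33, edgeR adjusted p = 0.0637), and had a read in 80.1% and 77.2% of the P7L nuclei against 41.0% and 40.6% of the G14.5 nuclei. None of these 3 passed the test. Mcm7 had 4.67 and 4.54 CPM at P7L, against 10.3 and 10.4 CPM at G14.5 (-1.17 ± 0.37, edgeR adjusted p = 0.104).

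Counted as libraries that do not overlap, 30 of the 44 genes had both P7L libraries above both G0 libraries in CPM, where 27.8% of all tested genes did, and 17 of these were mitosis genes. At G14.5 against G0 the count was 25, where 27.9% of all tested genes did, and at P7L against G14.5 it was 8, where 28.5% did. The reverse order held for 3 genes at G14.5 against G0 (28.2% of all tested genes), 2 at P7L against G0 (27.0%) and 15 at P7L against G14.5 (29.0%). At an unadjusted p under 0.05 by edgeR stood 24 of the 44 genes at G14.5 against G0, where 29.3% of all tested genes stood, 23 at P7L against G0 (21.2%) and 11 at P7L against G14.5 (23.6%). By share of nuclei with a read the counts were 34 at G14.5 against G0, with 47.2% over all tested genes, and 36 at P7L against G0, with 71.9%. Exact permutation of 2 against 2 libraries cannot go below p = 0.333, so these are counts without a test.

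Preparation moved with the mitosis genes as well. Perfusion against liver tissue called 0 of the 15015 tested genes by edgeR, with 707 (4.71%) at an unadjusted p under 0.05, and DESeq2 called 85, of which 2 were among the genes described here. Of the 18 mitosis genes, 16 were lower in perfusion, with a median log2 difference of -1.12, and 9 had an unadjusted p under 0.05. Top2a differed by -1.41 ± 0.33 and Prc1 by -2.14 ± 0.54, with edgeR adjusted p of 0.971 for each. Markers of some other cells moved the same way. Of the tested Kupffer and macrophage markers, 8 of 8 were lower in perfusion (median -0.92, 3 at an unadjusted p under 0.05 by edgeR). So were 5 of 6 erythroid markers (median -3.26, 4 at an unadjusted p under 0.05 by edgeR), and the 6 stellate markers had a median of -0.61. Other lists moved little, with medians of -0.07 for 6 endothelial, -0.01 for 4 cholangiocyte and 0.05 for 2 neutrophil markers. The 1 tested lymphocyte marker differed by -0.12. The part of other cells in the difference of the mitosis genes was not tested. The replication genes had a median difference of -0.28 and the G1/S genes of 0.11.

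Other genes of the same steps were read from lists of further cyclins, E2F and DREAM factors, replication and mitosis genes and p53 targets. Of 51 other tested mitosis genes, 10 rose and 0 fell at G14.5 against G0, and 6 rose and 0 fell at P7L against G0, with medians of 1.91 and 1.87. Over all tested genes 6.93% were called higher in the first of these comparisons and 1.56% in the second. Casc5, a kinetochore scaffold also called Knl1, had 12.2 and 14.0 CPM in the G14.5 perfusion and liver tissue libraries, against 0.572 and 0.900 CPM in the G0 ones (4.19 ± 0.44, edgeR adjusted p = 0.00213). Ube2c, the conjugating enzyme of the anaphase-promoting complex, and Hmmr differed by 5.82 ± 0.81 and 4.37 ± 0.65 at G14.5 against G0. Both were low at G0. Ube2c had 0.00398 and 0.0353 CPM in the G0 perfusion and liver tissue libraries, against 0.412 and 1.72 CPM in the G14.5 ones. Hmmr had 0.0954 and 0.591 CPM, against 3.06 and 8.98 CPM. Racgap1, which works with Kif23 and Ect2 at the central spindle, differed by 3.34 ± 0.63 (edgeR adjusted p = 0.0181), a gene named here after its values were seen.

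Of 49 other tested replication genes, 3 rose at G14.5 against G0 and 0 fell, a share close to the 6.93% called higher over all tested genes. Blm, the helicase lost in Bloom syndrome, had 30.6 CPM (perfusion) and 26.5 CPM (liver tissue) at G0, 67.6 and 56.0 CPM at mid-gestation and 158 and 125 CPM in lactation. It passed the test in all 3 stage comparisons: edgeR's adjusted p was 0.00766 at G14.5 against G0, 0.00305 at P7L against G0, and 0.00586 between P7L and G14.5. Chaf1a, a histone chaperone of replicating chromatin, differed by 4.78 ± 0.85 at G14.5 against G0. It had 0.0358 and 0.234 CPM in the G0 perfusion and liver tissue libraries, against 1.35 and 5.58 CPM in the G14.5 ones. Of 16 E2F, Rb and DREAM genes 1 rose, also close to that share: Rbl1, or p107, by 1.65 ± 0.39 (edgeR adjusted p = 0.0372). It was lower again at P7L than at G14.5 (-1.59 ± 0.39, edgeR adjusted p = 0.0487).

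Of 11 other tested G1/S genes, 1 rose and 2 fell at G14.5 against G0, where 6.93% of all tested genes rose and 5.01% fell. Myc rose by 3.71 ± 0.65 (edgeR adjusted p = 0.0144). Ccnd3, cyclin D3, had 54.2 and 39.8 CPM in the G14.5 perfusion and liver tissue libraries, against 287 and 332 CPM in the G0 ones (-2.73 ± 0.19, edgeR adjusted p = 0.000392). It was higher at P7L than at G14.5, with 361 and 353 CPM (2.93 ± 0.19, edgeR adjusted p = 0.000366). Cdkn1b, the inhibitor p27, had 66.3 and 70.1 CPM in the G0 perfusion and liver tissue libraries, 35.3 and 33.6 CPM in the G14.5 ones and 26.9 and 26.2 CPM in the P7L ones. It fell by 0.99 ± 0.20 at G14.5 against G0 (edgeR adjusted p = 0.0217) and by 1.36 ± 0.20 at P7L against G0 (edgeR adjusted p = 0.0245), and was the 1 gene of that list called in the second of these. Of 16 p53 targets 1 rose at G14.5, close to the 6.93% of all tested genes: Plk2, with 69.3 and 77.1 CPM against 1.82 and 5.31 CPM (4.47 ± 0.47, edgeR adjusted p = 0.00227).

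Within nuclei, replication genes were common at every stage and mitosis genes were less so. Nuclei were compared at 250000 reads each (1532 nuclei, 35 being too shallow for it). At least 3 of the 23 replication genes had a read in 80.7% (95% Clopper-Pearson interval 74.1 to 86.1) and 78.9% (73.2 to 83.9) of the G0 perfusion and liver tissue nuclei. The shares were 90.7% (86.8 to 93.7) and 90.6% (86.0 to 94.1) at G14.5 and 97.0% (94.3 to 98.6) and 93.2% (89.7 to 95.8) at P7L. At least 3 of the 20 mitosis genes had a read in 3.87% (1.57 to 7.81) and 6.75% (3.91 to 10.7) of the G0 nuclei. The shares were 24.7% (19.9 to 29.9) and 24.6% (19.1 to 30.7) at G14.5 and 19.9% (15.5 to 24.9) and 20.7% (16.3 to 25.8) at P7L. Without thinning, the mean shares for mitosis genes were 24.4% at G0, 56.3% at G14.5 and 45.8% at P7L, so this threshold moves with depth. Across the 1532 nuclei, 257 had at least 3 genes of both groups, 1112 of replication alone, 15 of mitosis alone and 148 of neither.

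**Figure D3:**
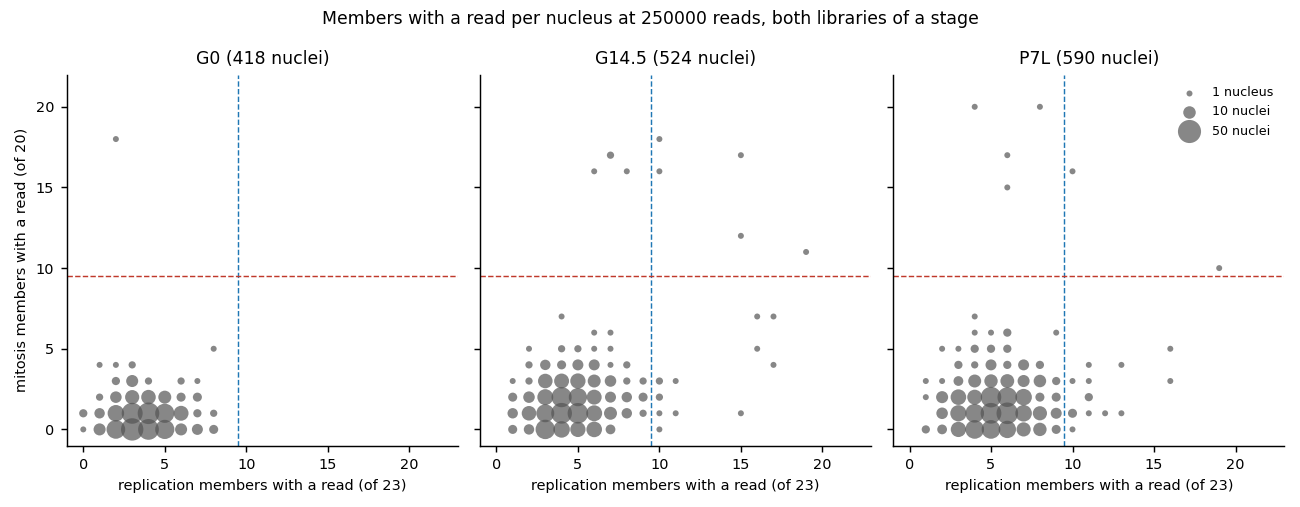
Number of mitosis genes with a read (of 20) against the number of replication genes with a read (of 23) per nucleus at 250000 reads, pooled over both libraries of a stage. The area of a point grows with the number of nuclei, but less than in proportion. Dashed lines lie just below 10 genes. Nuclei with 10 or more mitosis genes stand apart from the bulk, with no nucleus at 8 or 9, and 1 of these 16 nuclei is from G0.

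At a threshold of 10 genes, chosen after the values were seen, a small set of nuclei stood apart for mitosis. Of the 1532 nuclei 16 had reads of 10 or more mitosis genes, 0 and 1 in the G0 perfusion and liver tissue libraries, 2 and 7 in the G14.5 ones, and 2 and 4 in the P7L ones. No nucleus had 8 or 9, and 4 had 7. The 0 of 181 nuclei in the G0 perfusion library allows a share of up to 1.66% by a limit of 3 counts, or 2.02% by the upper Clopper-Pearson bound. For replication there was no such gap: 27 nuclei had 9 genes and 15 had 10. In all, 37 nuclei had 10 or more replication genes, 0 in both G0 libraries, 5 and 13 in the G14.5 perfusion and liver tissue libraries, and 5 and 14 in the P7L ones. Of these, 7 also had 10 or more mitosis genes and 30 did not. The 30 had more genes with a read than nuclei with fewer than 10 of both groups. Their medians were 6865.5 and 6457 in the G14.5 perfusion and liver tissue libraries, against 6034 and 5971. At P7L the medians were 7526 and 7300, against 6736 and 6669. The G0 nuclei with fewer than 10 of both had medians of 5386 and 5642. The part of this difference in the counts of replication genes was not tested.

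The 16 nuclei were chosen by these reads, so the following describes them without a test. They had a median of 16.5 mitosis genes, 8 replication genes and 922 reads of mitosis genes. Mki67, Top2a, Bub1b, Kif11, Anln and Ect2 had a read in all 16, and Birc5, Cdk1, Cenpe and Prc1 in 15. Cytokinesis genes were read there with the spindle genes: a median of 6 of the 7 (Anln, Ect2, Prc1, Kif23, Aurkb, Birc5 and Plk1) had a read, with Kif23 in 14, Aurkb in 7 and Plk1 in 6. Ccnb1 was read in 11 and Ccna2, cyclin A2, in 5. Among G1/S genes, Cdkn1a was read in 9, E2f8 in 8 and E2f7 in 6 of them.

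The 30 nuclei with 10 or more replication genes and fewer than 10 mitosis genes had a median of 11 replication genes, 2 mitosis genes and 1 cytokinesis gene. Cdc45 had a read in all 30, Pola1 in 29, Mcm10 in 27, Mcm6 and Brca2 in 25 each, Dtl in 21, Chek1 in 20 and Pcna in 18. Dtl was thus read in 70.0% of them, in 56.2% of the 16 mitosis nuclei and in 11.7% of the 1486 other nuclei. Bub1, Kif23 and Aurkb had no read in any of the 30. They were read in only 1.75%, 3.03% and 1.35% of the 1486 other nuclei, so these zeros do not set the 30 apart. Top2a was read in 14 of the 30 (46.7%) and in 10.2% of the other nuclei. Ccnd1 had a read in 40.0% of them and E2f7 in 3.33%, against 37.5% of the mitosis nuclei for E2f7.

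**Figure D4:**
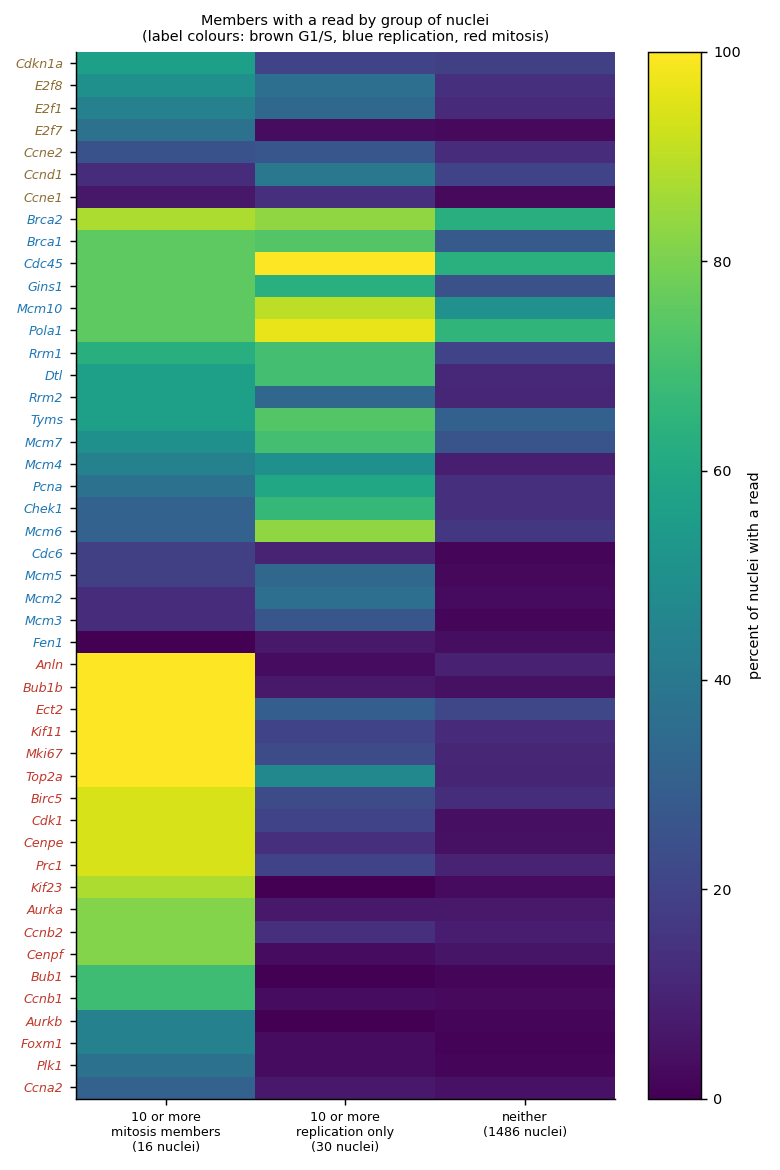
Percent of nuclei with a read of each gene (rows; brown G1/S, blue replication, red mitosis) in nuclei with 10 or more mitosis genes, with 10 or more replication genes only, and with neither, at 250000 reads. The first 2 columns were defined by these reads; Dtl is read in 56.2%, 70.0% and 11.7% of the nuclei of the 3 columns.

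These nuclei carried the hepatocyte markers. Median hepatocyte marker reads per nucleus were 3242.5 in the mitosis nuclei, 4142 in the replication nuclei and 4258 in the others, and median endothelial marker reads were 4, 2.5 and 3. Of the 16 mitosis nuclei, 1 of the G14.5 perfusion library had 36 endothelial and 32 stellate marker reads. The nuclei of neither group there had at most 34 endothelial and 294 stellate reads. The 1 mitosis nucleus at G0 had 25 endothelial marker reads, where the nuclei of neither group in its liver tissue library had up to 238. In the P7L liver tissue library, 1 mitosis nucleus had 19 lymphocyte marker reads, where the nuclei of neither group there had at most 17. The replication and mitosis programmes overlapped in some nuclei: 1 nucleus of the G14.5 liver tissue library had reads of 19 replication and 11 mitosis genes, with 1268 and 273 reads of them.

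The few mitosis nuclei gave much of the mitosis reads. They held 0% and 43.7% of the mitosis gene reads in the G0 perfusion and liver tissue libraries, 24.6% and 69.8% in the G14.5 ones and 37.9% and 60.2% in the P7L ones. They held 4.61% and 14.9% of the replication gene reads at G14.5 and at most 3.07% elsewhere. Outside both groups of nuclei, the mitosis genes summed to 19.6 CPM (perfusion) and 20.1 CPM (liver tissue) of those nuclei's reads at G0, 55.7 and 44.2 CPM in mid-gestation and 33.9 and 36.9 CPM in lactation. In these remaining nuclei, the libraries of each later stage still stood above both G0 libraries. The replication genes there summed to 199.98 and 205.8 CPM in the G0 libraries, 170.1 and 170.7 CPM in the G14.5 ones and 225.8 and 232.7 CPM in the P7L ones, with G14.5 the lowest stage.

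Single genes differed in this respect. Outside both groups, Mki67 was read in 2.21% and 3.39% of the G0 perfusion and liver tissue nuclei, 16.7% and 21.6% of the G14.5 nuclei and 9.31% and 9.03% of the P7L nuclei. Top2a had 5.50 and 1.17 CPM outside them at G14.5, against 0.420 and 0.864 CPM at G0. The 5.50 CPM of the G14.5 perfusion library leans on 1 nucleus outside both groups, which had 273 Top2a reads. The mitosis nuclei held 28.0% of the Top2a reads in the G14.5 perfusion library and 88.9% in the liver tissue one. In the 2 groups together lay 58.3% and 87.9% of the Dtl reads of the G14.5 perfusion and liver tissue libraries, and 6.03% and 27.5% of those of Cdc45. Cdc45 outside the groups was read in 47.5% and 41.5% of the G0 nuclei, 77.2% and 74.5% of the G14.5 nuclei and 67.6% and 66.4% of the P7L nuclei. As a measure of background, the endothelial markers had a median share of nuclei with a read of 24.0% and 20.9% in the G0 libraries, 18.5% and 18.8% in the G14.5 ones and 16.9% and 18.9% in the P7L ones. Shares of that size or lower are therefore not read as expression. Those of Mki67 lay below this median except in the G14.5 liver tissue library (21.6% against 18.8%), and those of Cdc45 lay above it. Among the lists of other cells, the endothelial one had the highest such median in every library, so this measure is a choice. The Kupffer and macrophage median was 9.67% and 17.9% in the G14.5 perfusion and liver tissue libraries, below the Mki67 shares there. The most widely read endothelial marker was found in 60.8% and 55.7% of the G0 nuclei, above Cdc45 there. It was found in 52.3% and 54.9% of the G14.5 nuclei and in 48.0% and 46.9% of the P7L nuclei, below Cdc45 at both stages. The most widely read cholangiocyte marker was found in 91.2% to 98.3% of the nuclei of a library, above Cdc45 at every stage. The median of that list was 1.01% to 1.79%.

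**Figure D5:**
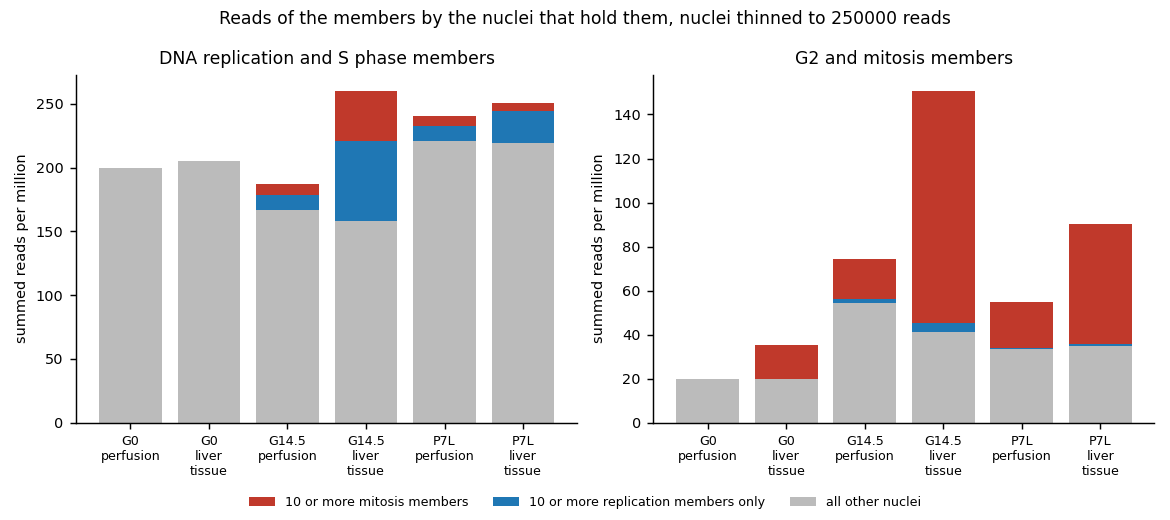
Reads of the replication genes (left) and mitosis genes (right) as CPM of each library at 250000 reads per nucleus, stacked by the nuclei that hold them. Mitosis nuclei (red) hold 69.8% of the mitosis gene reads in the G14.5 liver tissue library and 24.6% in the perfusion one, and the bars of replication genes are mostly from the other nuclei (grey).

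Position in the liver lobule did not separate the nuclei with at least 3 mitosis genes in 1 direction. The pericentral index is the share of pericentral genes in the reads of pericentral and periportal genes. Its median in nuclei with at least 3 mitosis genes was 0.133 and 0.224 in the G0 perfusion and liver tissue libraries, against 0.204 and 0.182 in the nuclei without. For G14.5 it was 0.0805 and 0.340, against 0.0599 and 0.123 without, and for P7L 0.0495 and 0.0960, against 0.0360 and 0.108 without. The 16 nuclei with 10 or more mitosis genes ran from 0.0336 to 0.774. Their median was above that of the other nuclei in all 4 libraries of G14.5 and P7L, with 2 to 7 such nuclei in each, and below it for the 1 such nucleus at G0.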

How the data were processed

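Nuclei were sequenced with Smart-seq3xpress. Per the submitters' processing notes, Trimmomatic 0.39, HISAT2 2.1.0 and featureCounts 1.5.3 and the builds GRCm38 and mm10 were used. The annotation release, the strand setting and the filters on nuclei are not given in the sources used here. The authors deposited raw read counts per gene and nucleus (40824 genes and 92 spike-in rows with 0 reads). They also deposited TPM-like values, per length and scaled to 100000 per nucleus with 3 genes (Alb, Apoa2 and Fabp1) outside the scaling sum, as read from the values.

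Counts were summed per library. The filter on low counts was filterByExpr (grouped by stage) together with a read in 5% of nuclei in 2 or more libraries, and 15015 genes passed. edgeR 4.0.16 (R 4.3.3) fitted stage and preparation to 6 libraries (robust quasi-likelihood, TMM), two-sided, with 2 residual degrees of freedom, a prior of 5.13 and Benjamini-Hochberg adjustment over all tested genes. Replicate numbers follow accession order and pair nothing; preparation comes from the labels. The quasi-likelihood test prints no standard error. Each SE given here is the absolute log2 difference divided by the square root of the F statistic of its test. Shares of nuclei used nuclei thinned to 250000 reads, with exact Clopper-Pearson intervals by scipy 1.17.1. Promoters are from RefSeq (GRCm38.p6) and exon overlaps from GENCODE M21.

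The genes, lists and tests were chosen with earlier results of these data known. All 50 genes may be named, and of each other list up to 4 called genes with the smallest p; 1 called gene of the other replication list is not reported here. Alternatives were RLE factors, library size, other filters, no preparation term, thinning, limma-voom and limma 3.58.1 on log2 of the authors' values plus 1 or 0.1, DESeq2 1.42.0, and leaving out each library. The edgeR test of G14.5 against G0 was also run on counts simulated gene by gene, with the spread estimated from these 6 libraries. Nuclei were not simulated, so that run says nothing about reads held by few nuclei. No sample was left out.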

Additional observations from a re-analysis of the deposited data

How the results depend on the processing

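Of the called genes' values under the 16 alternatives, 183 kept their direction and their side of the threshold and 89 kept the direction alone. For genes that were not called, library size alone left 17 mitosis and 4 G1/S genes with a positive difference at G14.5 against G0 (18 and 5 under TMM) and 7 replication genes at P7L against G14.5 (4 under TMM). Genes called numbered 1793 at G14.5 against G0 (DESeq2 3410, limma on the authors' values with a pseudocount of 1 1128), 438 at P7L against G0 (filterByExpr alone 92, no filter 227, DESeq2 1901, the authors' values 4 with a pseudocount of 1 and 205 with 0.1), 1390 at P7L against G14.5 (DESeq2 2631) and 0 for preparation (DESeq2 85). Of the 44 genes, 11 were called at G14.5 against G0, with 7 under filterByExpr alone, 7 without a filter, 23 by DESeq2 and 6 on the authors' values with a pseudocount of 1. At P7L against G0, 5 were called, with 0 under filterByExpr alone, 0 without a filter, 3 with no replicate block (no preparation term), 9 by limma-voom, 20 by DESeq2 and 0 on the authors' values with either pseudocount. At P7L against G14.5, 1 was called, with 3 under library size alone, 2 with no replicate block, 4 after thinning to 250000 reads, 2 by limma-voom, 7 by DESeq2 and 2 on the authors' values with either pseudocount. For preparation, DESeq2 called 2. With no replicate block, 9 were called at G14.5 against G0. The numbers of the libraries pair nothing beyond the preparation that the labels name. Leaving out each library in turn gave 651 to 1942, 37 to 669, 421 to 2431 and 0 to 0 genes for the 4 comparisons, and 6 to 16, 0 to 10, 0 to 5 and 0 to 0 of the genes described. The causes of these differences were not tested.

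For G0, G14.5 and P7L in turn, the mean share of nuclei with replication genes was 79.8%, 90.6% and 95.1% as reported. It was 94.5%, 96.9% and 99.2% with at least 2 genes, 30.4%, 49.7% and 68.5% with at least 5, and 23.1%, 24.4% and 48.1% with at least 3 of at least 5 reads each. It was 92.4%, 98.3% and 97.5% without thinning and 93.0%, 95.7% and 97.9% at 500000 reads. The mean share with mitosis genes was 5.31%, 24.6% and 20.3% as reported. It was 19.1%, 49.2% and 45.1% with at least 2 genes, 0.422%, 4.40% and 4.24% with at least 5, and 0.211%, 3.51% and 1.87% with at least 3 of at least 5 reads each. It was 24.4%, 56.3% and 45.8% without thinning and 14.0%, 40.8% and 36.0% at 500000 reads. The settings that follow were chosen after seeing the data. With at least 10 genes, replication had 0%, 3.74% and 3.23%, or 2.23%, 15.3% and 11.9% without thinning and 0%, 6.72% and 7.03% at 500000 reads. With at least 10 genes, mitosis had 0.211%, 1.90% and 1.02%, or 0.198%, 2.06% and 1.49% without thinning and 0%, 2.00% and 1.62% at 500000 reads. With at least 15 genes, replication had 0%, 1.62% and 0.508% and mitosis 0.211%, 1.51% and 0.849%. With at least 5 genes of at least 5 reads each, replication had 1.33%, 5.79% and 10.3% and mitosis 0.211%, 1.90% and 1.02%. At 10 genes, 7 nuclei had both, 30 replication alone and 9 mitosis alone, against 257, 1112 and 15 at 3 genes. The mean of the library medians of the pericentral index at 10 mitosis genes was 0.0763 at G0, from 1 nucleus (0.178 at 3 genes), 0.249 at G14.5 (0.210) and 0.157 at P7L (0.0728). Depth limits these shares, since a nucleus without a read of a gene may still transcribe it.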

Other observations

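Shares of nuclei with a read are given here for 3 G1/S genes, the repressor E2f8, the activator E2f1 and cyclin D1. Most of them lie below the median share of the endothelial markers in the same library (16.9% to 24.0% over the libraries). Those of E2f8 at G14.5 lie above it (18.5% and 18.8% in the perfusion and liver tissue libraries). So do those of E2f1 and Ccnd1 at P7L (16.9% and 18.9%). The shares were not tested, and no difference in expression is read from them. E2f8 had 15.5% and 16.0% of nuclei with a read at equal depth in the G0 perfusion and liver tissue libraries, 21.3% and 21.4% in the G14.5 ones and 7.77% and 8.50% in the P7L ones, while its CPM at G14.5 and G0 differed by 0.00 ± 0.41 on the log2 scale. E2f1 was read in 2.21% and 3.80%, 10.0% and 8.93%, and 20.6% and 23.5% of the nuclei of the same stages. Ccnd1 was read in 15.5% and 16.0%, 11.3% and 6.70%, and 34.1% and 32.3%.

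Some levels rest on single nuclei. In the G14.5 liver tissue library the nucleus with 19 replication genes held 150 of the 180 Ccne1 reads of that library at equal depth. The 1 mitosis nucleus at G0 held 919 of the 2102 mitosis gene reads of its library, and read 18 mitosis and 2 replication genes.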
